A study of Macaca fascicularis with 21 samples.

Results

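The genes ISL1, GABRP, VTCN1, ATP12A and DLK2 were followed through cultured embryos of the cynomolgus monkey, Macaca fascicularis. They are 5 of the 30792 genes of the deposited count table, taken by symbol because they mark the amnion in these same cells, so their high amnion levels are described below and not tested. The 1453 cells came from 21 embryos on labelled days 11, 12, 13, 14, 16 and 17, with 2, 5, 3, 4, 4 and 3 embryos. Every embryo was a blastocyst freed of its zona and grown in vitro, alone in a well coated with the matrix gel Matrigel, as the serum was raised. Cells of the implantation site were picked by hand after most extra-embryonic tissue had been removed, and the 3' ends of their transcripts were read. Strain, sex and genotype are not given in the labels, and no embryo developed in utero is among the samples used. The day stands under a developmental stage label for 16 embryos and under a culture stage label for 5, of which 1 is at day 12 (replicate 1), 2 are at day 13 (replicates 1 and 2) and 2 at day 17 (replicates 1 and 2).

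The deposited annotation called 82 cells amnion (AM). Of these, 27 were L-AM2, 22 were L-AM1 and 33 were E-AM. The other 1371 cells were epiblast (EPI: postL-EPI, postE-EPI), gastrulating cells (Gast: L-Gast2, L-Gast1, E-Gast), germ cell precursors (E-PGC), endoderm of the visceral and yolk sac kind (VE/YE), extra-embryonic mesenchyme (EXMC) and trophectoderm (TE and derivatives). All 33 E-AM cells stood at days 11 to 14. All L-AM1 cells and all but 1 of the L-AM2 cells stood at days 16 and 17, so late against early amnion and late against early day cannot be told apart. A cell held between 3376 and 483669 counts, with a median of 61090. The median was 66010 counts in L-AM2, 103144 in L-AM1 and 28470 in E-AM cells.

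The amnion is the thin epithelium that closes over the epiblast and bounds the amniotic cavity. In primates it forms around implantation from epiblast cells, which makes it one of the earliest cell types to part from the embryo proper. ISL1 is a LIM homeodomain transcription factor, and in cynomolgus embryos amniotic ISL1 is known to be needed for mesoderm formation. GABRP is the pi subunit of the GABA-A receptor, a chloride channel. VTCN1, also called B7-H4, is a B7 family ligand that restrains T cells. ATP12A is the catalytic subunit of the non-gastric proton-potassium pump of epithelia. DLK2 is a membrane protein with EGF-like repeats, the paralogue of DLK1 and a relative of the Notch ligands.

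All 5 genes had their highest mean in L-AM2. Among sums of at least 3 cells, the 4 L-AM2 embryos lay above every L-AM1 and E-AM embryo for each gene. For ISL1 and ATP12A this rests on summing counts, which gives deep cells more weight. Outside L-AM2 they parted ways. ISL1 was shared by all 3 amnion labels, ATP12A had its second highest level in E-AM, VTCN1 was also high in late epiblast and L-Gast1, and DLK2 was low nearly everywhere else. Levels are CPM, counts scaled to a common library size, of the cells of 1 type summed within 1 embryo, for sums of at least 3 cells, given as mean ± SD over n embryos. Counts from the 3' end do not allow levels of different genes to be compared with each other, so each gene is compared only with itself.

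**Figure D1:**
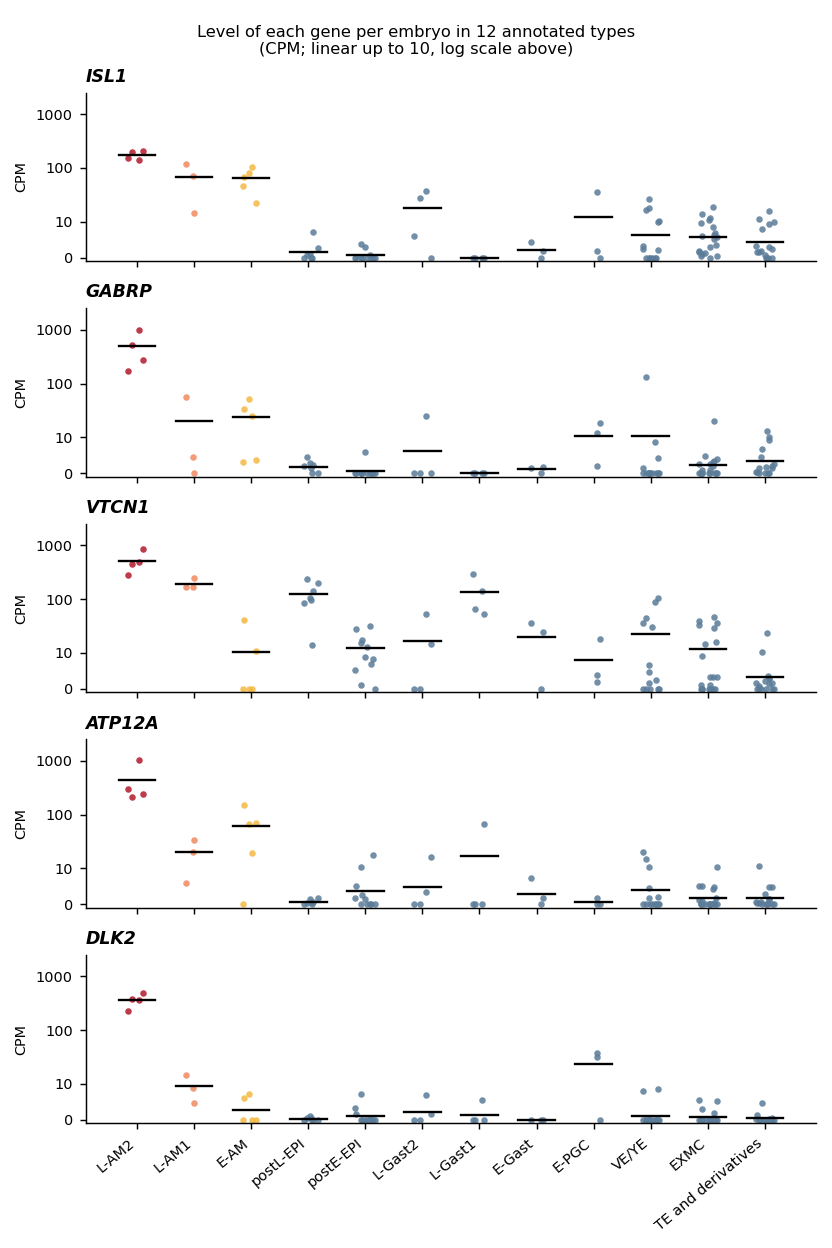
Level of each gene in CPM (y axis, linear up to 10 and log scale above) in the 12 annotated types (x axis). Each point is 1 embryo with at least 3 cells of the type and each bar is the mean. The L-AM2 mean, at the left, lies above those of the other types for all 5 genes, while VTCN1 alone is also high in postL-EPI and L-Gast1.

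ISL1, the transcription factor of the set, measured 153, 202, 205 and 139 CPM in the L-AM2 cells of day 16 replicates 1 to 4. In L-AM1 it measured 121, 71.7 and 14.4 CPM in day 16 replicates 1, 3 and 4. In E-AM it measured 68.2 and 22.0 CPM at day 12, 45.6 CPM at day 13, and 80.0 and 105 CPM at day 14. All 12 of these sums held ISL1, and the ranges of L-AM1 and E-AM overlapped almost wholly. Not all sums of fewer cells held it. Of the L-AM1 sums of 2 cells, day 16 replicate 2 and day 17 replicate 2 held no ISL1 count (of 203434 and 412907). Day 17 replicate 1 held 4. E-AM sums of 1 cell held none, and those of 2 cells held some. Over the 12 sums the means were 175 ± 34.1 CPM in L-AM2 (SD, n = 4), 69.0 ± 53.3 CPM in L-AM1 (n = 3) and 64.2 ± 31.9 CPM in E-AM (n = 5). The L-AM1 and E-AM means differed by 4.82 CPM, less than either spread. Single cells weighed heavily in both: 57.6% of the E-AM counts came from 1 cell of day 14 replicate 4, and 37.3% of the L-AM1 counts from 1 cell.

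Outside the amnion ISL1 was highest in L-Gast2, at 27.3, 6.0, 37.3 and 0 CPM in the 4 day 16 embryos, which overlapped with L-AM1 and E-AM but not with L-AM2. The remaining types averaged between 0.706 CPM in postE-EPI and 12.4 CPM in E-PGC, apart from L-Gast1. No L-Gast1 cell held an ISL1 count (0 of 15 cells, which at a limit of 3 counts allows a share of cells with a count of up to 20%).

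GABRP, the receptor subunit, measured 168, 530, 273 and 980 CPM in the L-AM2 cells of day 16 replicates 1 to 4. In L-AM1 it measured 56.7, 4.39 and 0 CPM in replicates 1, 3 and 4, and in E-AM the 5 embryos ran from 3.26 to 50.9 CPM with a median of 24.9. The lowest L-AM2 embryo stood above the highest of the other amnion sums. The means were 488 ± 361 CPM in L-AM2 (n = 4), 20.4 ± 31.6 CPM in L-AM1 (n = 3) and 23.4 ± 20.4 CPM in E-AM (n = 5), and the last pair did not differ beyond their spread. In L-AM1, 69.1% of the GABRP counts came from 1 cell of day 16 replicate 1.

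No other type averaged above 10.7 CPM of GABRP, the level in E-PGC. VE/YE averaged 10.6 ± 35.6 CPM (n = 14), but 88.6% of its counts came from 1 cell of day 16 replicate 3, and the median VE/YE embryo was at 0. Of the 82 sums outside the amnion, 43 held no GABRP count.

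VTCN1, the immune checkpoint ligand, measured 281, 449, 837 and 480 CPM in the L-AM2 cells of day 16 replicates 1 to 4. In L-AM1 it measured 169, 167 and 245 CPM in replicates 1, 3 and 4. In E-AM it measured 40.3 and 11.0 CPM at day 12 and 0 CPM in the 3 embryos of days 13 and 14. In these sums of at least 3 cells the 3 amnion labels did not overlap. The means were 512 ± 234 CPM in L-AM2 (n = 4), 194 ± 44.8 CPM in L-AM1 (n = 3) and 10.3 ± 17.5 CPM in E-AM (n = 5). Sums of fewer cells, scaled by their totals alone, did overlap. L-AM1 sums of 2 cells measured 24.6 CPM in day 16 replicate 2 and 0 and 230 CPM in day 17 replicates 1 and 2. Small E-AM sums ran from 0 to 148 CPM.

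VTCN1 differed from the other 4 genes in having more of its counts in epiblast (43.1%) than in amnion (38.0%). In postL-EPI it measured 235, 105, 143 and 198 CPM at day 16 and 85.7, 95.1 and 13.7 CPM at day 17. L-Gast1 measured 286, 140, 66.2 and 52.2 CPM at day 16. Both types overlapped with L-AM1. The highest L-Gast1 embryo, in which 286 CPM were measured, also passed the lowest L-AM2 embryo, at 281 CPM. That L-Gast1 sum of 4 cells held 112 of the 177 L-Gast1 counts, and 1 of its cells held 42.9% of the 177. In the epiblast the counts were spread widely, with 6.42% of those in postL-EPI in the cell that held most.

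L-AM1 also held epiblast markers. DNMT3B, a DNA methyltransferase, measured 60.4 ± 33.2 CPM in L-AM2, 864 ± 244 CPM in L-AM1 and 952 ± 253 CPM in postL-EPI. SOX2, a pluripotency factor, measured 4.19 ± 1.87 CPM in L-AM2, 94.7 ± 76.3 CPM in L-AM1 and 309 ± 213 CPM in postL-EPI. NANOG measured 1.61 ± 2.13 CPM in L-AM2, 88.3 ± 56.5 CPM in L-AM1 and 120 ± 126 CPM in postL-EPI (n = 4, 3 and 7). In E-AM, where VTCN1 was low, DNMT3B measured 326 ± 39.9 CPM, SOX2 4.47 ± 3.35 CPM and NANOG 45.3 ± 50.9 CPM (n = 5). In L-AM2, SOX2 and NANOG were thus near 0 where VTCN1 was highest. Not all epiblast markers were so low there. POU5F1 measured 411 ± 165 CPM in L-AM2, 775 ± 143 CPM in L-AM1, 677 ± 376 CPM in postL-EPI and 647 ± 267 CPM in E-AM. DPPA4 measured 17.0 CPM in L-AM2 and 124 CPM in postL-EPI, and GDF3 9.03 and 38.4 CPM. In L-AM1 the means of DNMT3B, SOX2 and NANOG were above those in L-AM2 and E-AM. What part epiblast RNA had in the VTCN1 level of L-AM1 was not tested.

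ATP12A, the ion pump, measured 299, 211, 238 and 1014 CPM in the L-AM2 cells of day 16 replicates 1 to 4. In L-AM1 it measured 5.90, 20.5 and 33.7 CPM in replicates 1, 3 and 4. In E-AM it measured 149 and 69.6 CPM at day 12, 0 CPM at day 13, and 65.5 and 19.3 CPM at day 14. Replicate 4 stood apart within L-AM2, and the L-AM1 and E-AM ranges overlapped. The means were 441 ± 384 CPM in L-AM2 (n = 4), 20.02 ± 13.9 CPM in L-AM1 (n = 3) and 60.7 ± 57.6 CPM in E-AM (n = 5). L-AM2 and E-AM, the label with the next highest mean, differed by less than the larger SD, and so did E-AM and L-AM1. When the cells within an embryo were given equal weight the mean over the same embryos was 222 CPM in L-AM2, 34.6 CPM in L-AM1 and 126 CPM in E-AM. With that weight the L-AM2 embryos no longer all lay above the E-AM embryos, where 1 cell of day 12 replicate 1 reached 785 CPM. A further E-AM cell, alone in day 12 replicate 3, measured 386 CPM.

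Outside the amnion ATP12A averaged at most 4.93 CPM, except in L-Gast1. There all 9 counts lay in 1 cell of day 16 replicate 4, which gave a mean of 16.8 ± 33.6 CPM (n = 4).

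DLK2, the Notch ligand relative, measured 222, 371, 490 and 366 CPM in the L-AM2 cells of day 16 replicates 1 to 4. In L-AM1 it measured 14.7, 8.78 and 4.81 CPM in replicates 1, 3 and 4. In E-AM it measured 6.20 and 7.28 CPM in 1 embryo each of days 12 and 14 and 0 CPM in the other 3. The ratio of the DLK2 means was 38.4 between L-AM2 and L-AM1, and 83.0% of all DLK2 counts in the table lay in the 27 L-AM2 cells. The means were 363 ± 110 CPM in L-AM2 (n = 4), 9.44 ± 5.00 CPM in L-AM1 (n = 3) and 2.70 ± 3.71 CPM in E-AM (n = 5). When the cells within an embryo were given equal weight, the L-AM2 mean over the same embryos was 176 CPM. Of the L-AM2 counts, 36.5% came from 1 cell of replicate 2; with all L-AM2 cells pooled the level was 296 CPM, and 222 CPM without that cell.

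DLK2 was the only one of the 5 genes whose second highest mean lay outside the amnion, at 23.4 ± 20.5 CPM in E-PGC. E-PGC overlapped with L-AM1, the next type, and their means differed by less than the larger SD. E-PGC, the precursors of the gametes, measured 32.1, 38.2 and 0 CPM in day 16 replicates 2, 3 and 4, all below L-AM2. DLK2 was seen in 5 of 18 E-PGC cells (27.8%), against 5 of 22 L-AM1 cells (22.7%) and 8 of 485 EXMC cells (1.65%). With cells thinned to 20000 counts it was seen in 3 of 13 E-PGC cells (23.1%). The thinned shares were 3 of 19 cells (15.8%) in L-AM1 and 3 of 382 cells (0.785%) in EXMC. Median depths were 40104 counts in E-PGC, 103144 in L-AM1 and 57567 in EXMC. No E-Gast cell held a DLK2 count (0 of 33 cells, which by the same limit allows up to 9.09%).

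The 3 embryos with at least 3 cells of both late labels, day 16 replicates 1, 3 and 4, set L-AM2 and L-AM1 side by side within 1 embryo. All 5 genes were higher in L-AM2 in each of them. The ratio was between 1.26 and 9.6 for ISL1, between 1.66 and 5.02 for VTCN1, between 11.6 and 50.7 for ATP12A and between 15.1 and 76.1 for DLK2. For GABRP it was 2.97 and 62.2 in replicates 1 and 3, and replicate 4 held no GABRP count in L-AM1. The labels were drawn from these values, so the step between them is a description.

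Cell by cell, the 5 genes were spread unevenly even within L-AM2, as the plot of single amnion cells shows. GABRP and VTCN1 were each seen in 23 of 27 L-AM2 cells (85.2%), ISL1 in 19 (70.4%), and ATP12A and DLK2 in 17 each (63.0%). The exact 95% binomial interval was 66.3% to 95.8% at the top of this range and 42.4% to 80.6% at its bottom. The interval takes cells as independent, although the L-AM2 cells came from 7 embryos, so it leaves out the spread between embryos. Thinned to 20000 counts, the 21 cells deep enough held GABRP in 81.0%, VTCN1 in 90.5%, ISL1 in 71.4%, ATP12A in 52.4% and DLK2 in 61.9%. In trophectoderm, which lies apart from the amnion and has a median of 69067.5 counts, the thinned share was between 0.633% for DLK2 and 4.75% for ISL1 and ATP12A. Other types came closer for single genes. VTCN1 reached a thinned share of 67.8% in postL-EPI, where the other genes had between 0.87% and 5.22%. It reached 57.1% in L-Gast1, where the others had between 0% and 7.14%. In E-PGC the thinned share ran from 0% for ATP12A to 23.1% for DLK2.

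In L-AM1, VTCN1 was seen in 77.3% of cells (thinned 73.7%) and ISL1 in 54.5% (thinned 47.4%). GABRP was seen in 45.5% of L-AM1 cells but in 15.8% after thinning. In E-AM, ISL1 was seen in 57.6% of cells (thinned 55.0%) and ATP12A in 45.5% (thinned 40%), while VTCN1 and DLK2 were seen in 15.2% and 6.06% (thinned 15.0% and 0%).

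**Figure D2:**
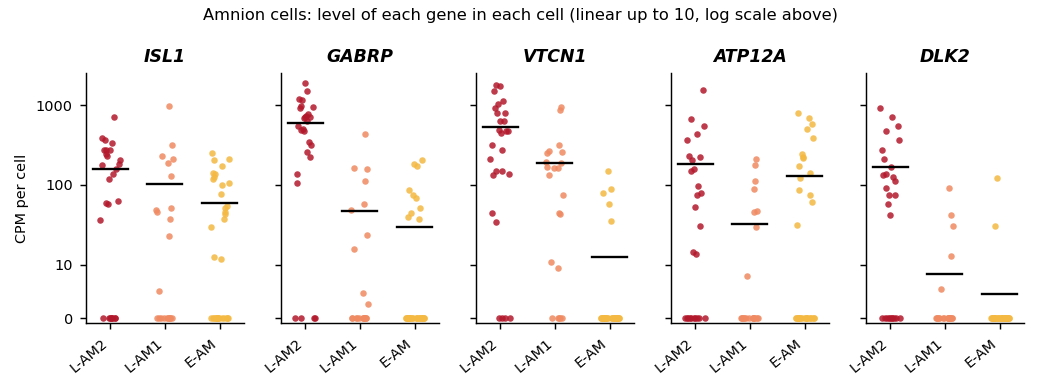
Level of each gene in single amnion cells (y axis, CPM per cell, linear up to 10 and log scale above) for L-AM2, L-AM1 and E-AM (x axis). Points are cells and bars are means over cells; each gene has cells at 0 in every label, also in L-AM2, where 4 to 10 of 27 cells lack it.

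Cells with several of the genes were most frequent in L-AM2 and rare outside the amnion. At least 3 of the 5 were seen in 24 of 27 L-AM2 cells (88.9%), in 9 of 22 L-AM1 cells (40.9%) and in 7 of 33 E-AM cells (21.2%). Outside the amnion it was 26 of 1371 cells (1.90%). With cells thinned to 20000 counts these shares were 90.5%, 21.1%, 15.0% and 0.366%. All 5 genes were seen together in 7 L-AM2 cells, 1 L-AM1 cell and 1 L-Gast2 cell of day 16 replicate 3. Within the 27 L-AM2 cells the pairwise correlations of log2 levels lay between -0.255 (GABRP with DLK2) and 0.358 (ISL1 with VTCN1). These correlations describe cells that share embryos, differ in depth and often lack a count of a gene. They cannot show whether the genes follow 1 common scale across cells.

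**Figure D3:**
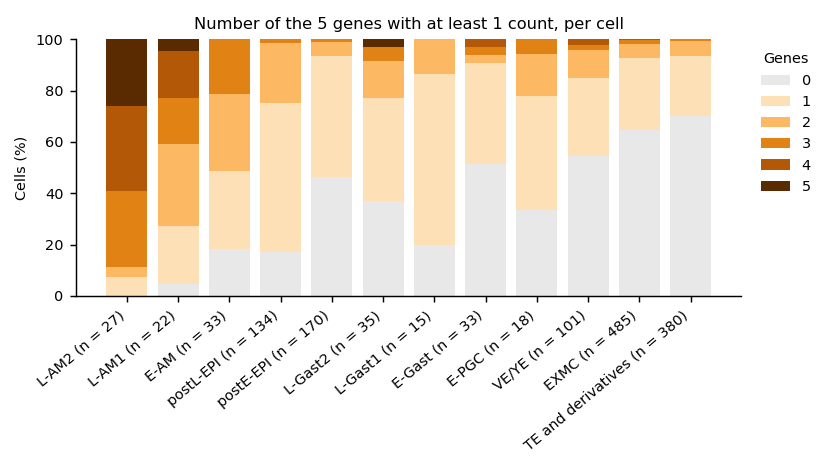
Share of cells (y axis, %) in each annotated type (x axis, with the number of cells) that held counts of 0 to 5 of the genes, from light to dark. L-AM2 stands apart with 88.9% of cells holding at least 3 genes, against 1.90% of the cells outside the amnion.

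The 7 late amnion cells of other days than 16 did not all share the pattern of day 16. The single L-AM2 cell of day 13, in replicate 3, held 121 ISL1, 43 GABRP and 14 VTCN1 counts of 315091, and no count of ATP12A or DLK2. The 2 L-AM2 cells of day 17 together held 476 GABRP and 419 VTCN1 counts of 256819. Of these, 456, 417 and 243381 came from the cell of replicate 3. The 2 cells held no ISL1 and no DLK2 count. At a limit of 3 counts this allows up to 11.7 CPM of each, by counting error alone. The lowest L-AM2 sums of day 16, of 4 cells each, held 139 CPM of ISL1 and 222 CPM of DLK2. Single L-AM2 cells of day 16 could lack both genes, as did 1 of replicate 1 with 44425 counts. In all 6 amnion cells of day 17, from 3 embryos, ISL1 had 4 counts and DLK2 had 0. With so few cells no test was made.

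Whether the genes changed with day inside 1 cell family was tested with edgeR's quasi-likelihood test on sums of at least 5 cells, with adjustment over all genes of the fit. In the amnion such sums existed for 4 embryos of day 16 (42 cells) and 2 of day 12 (13 cells), all L-AM at day 16 and all E-AM at day 12. VTCN1 and DLK2 rose, which makes 2 of the 5 genes, against 0.572% of the 10317 genes tested that rose and 0.271% that fell (0.843% called in all). The 5 genes were picked with these values known, so neither their count nor their p-values are independent support. The fit holds only days 12 and 16, so a change per day restates the step between these days.

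VTCN1 in amnion sums measured 208, 380, 510 and 364 CPM at day 16, against 40.7 and 11.2 CPM at day 12. The days did not overlap. The change was 0.94 ± 0.17 log2 units per day (SE, adjusted p = 0.0114, edgeR), beside a median of 0.05 over all genes. DLK2 measured 70.1, 312, 253 and 184 CPM at day 16, against 6.26 and 0 CPM at day 12, again without overlap. Its change was 1.46 ± 0.26 per day (adjusted p = 0.0113, edgeR).

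GABRP measured 89.5, 444, 140 and 487 CPM at day 16, against 34.5 and 3.72 CPM at day 12, with a change of 0.97 ± 0.24 per day that missed the threshold (adjusted p = 0.0943, edgeR). It passed with DESeq2 (adjusted p = 0.0028). ISL1 measured 137, 169, 141 and 76.2 CPM at day 16, against 68.9 and 22.3 CPM at day 12 (0.37 ± 0.17 per day, adjusted p = 0.402, edgeR). ATP12A measured 83.0, 176, 131 and 521 CPM at day 16, against 150 and 70.7 CPM at day 12, and these ranges overlapped (0.26 ± 0.18 per day, adjusted p = 0.616, edgeR).

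Both amnion calls rest on few embryos. They were lost without day 12 replicate 1 (adjusted p = 0.0622 for VTCN1 and 0.0832 for DLK2, with changes of 1.25 and 2.67 per day), without day 12 replicate 2 (0.169 and 0.121), without day 16 replicate 2 (0.0593 and 0.0673) and without day 16 replicate 3 (0.0721 and 0.0662). They were also lost with the type of day label as a covariate (0.0565 and 0.0731, with changes of 1.26 and 2.63 per day). With sums of 3 or 4 cells added, which brings in days 13, 14 and 17, the adjusted p was 0.328 for VTCN1, 0.1 for DLK2 and 0.019 for GABRP. In those smaller sums VTCN1 was at 21.3 CPM at day 13, at 0 and 0 CPM at day 14 and at 34.5 CPM at day 17, and DLK2 was above 0 in 1 of the 4, at 7.44 CPM.

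Trophectoderm markers moved in the amnion sums as well. Their sum over the 6 measured genes was 20.02 to 93.4 CPM at day 16, against 611 and 1216 CPM at day 12, and CGA, a gonadotropin subunit, fell by 1.16 ± 0.18 log2 units per day (adjusted p = 0.00798, edgeR). The summed trophectoderm markers were lower at day 16 in other families too. In the epiblast they were 38.0 to 408.5 CPM at day 16, against 581 to 3314 CPM at day 12. In EXMC they were 47.6 to 217 CPM, against 473 to 2528 CPM. The summed mesenchyme markers of the amnion were 377 to 1449 CPM at day 16, against 126 and 219 CPM at day 12. Epiblast markers in the amnion were 735 to 1772 CPM at day 16, against 1018 and 1488 CPM at day 12. The part of these shifts in the change of VTCN1 and DLK2 was not tested.

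Of 25 companion genes often used for amnion, all were measured, 24 could be tested in the amnion sums, 1 rose and none fell, beside 0.843% of all genes called. Their median change was -0.07 log2 units per day, beside 0.05 over all genes. The 1 that rose was IGFBP3, an IGF binding protein, with 376, 872, 498 and 236 CPM at day 16, against 21.9 and 29.8 CPM at day 12 (1.05 ± 0.16 per day, adjusted p = 0.00465, edgeR). IGFBP3 is most abundant in EXMC, with a mean of 3626 CPM over the EXMC sums. CDX2, GATA2 and HEY1 came next without a call: CDX2 measured 0 to 28.3 CPM at day 16, against 210 and 126 CPM at day 12 (adjusted p = 0.0606, edgeR). GATA2 measured 1.18 to 13.8 CPM at day 16, against 62.6 and 89.3 CPM at day 12 (adjusted p = 0.114). HEY1, a Notch target, measured 63.9 to 325 CPM at day 16, against 28.2 and 33.5 CPM at day 12 (adjusted p = 0.139).

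Across families, 11 of the 25 companions had their highest mean level in amnion sums (TFAP2B, WNT6, HAND1, ID1, ID2, HEY1, KRT8, KRT18, KRT19, CDX2 and CLDN10), and 9 in trophectoderm, among them TFAP2A and GATA3. TFAP2A averaged 185 CPM in amnion and 341 CPM in trophectoderm sums, and GATA3 201 and 435 CPM. The share of all genes with their highest mean in each family was not computed, and the list was picked as amnion genes. The counts of companions by family are therefore a description and no sign of an excess.

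Genes related to the 5 by function were looked up as well: LIM factors and cofactors, GABA-A receptor subunits, B7 ligands, P-type ATPase subunits, and Notch ligands and receptors. Of 27, 25 had a row, 15 could be tested in the amnion, 1 rose and none fell, and the median change was 0.42 log2 units per day, beside the same 0.843% and 0.05 over all genes. The 1 that rose was DLK1, the paralogue of DLK2, with 332, 1327, 213 and 322 CPM at day 16, against 0 and 14.9 CPM at day 12 (1.56 ± 0.30 per day, adjusted p = 0.0341, edgeR). By label DLK1 averaged 826 ± 517 CPM in L-AM2, 69.4 ± 111 CPM in L-AM1 and 9.40 ± 12.6 CPM in E-AM (n = 4, 3 and 5). DLK1 rose in EXMC too, by 1.54 ± 0.15 per day (adjusted p = 2.35e-06, edgeR), and what part EXMC RNA has in its amnion counts was not tested. CD274, another B7 ligand, held no count in any of the L-AM2, L-AM1 and E-AM sums. With day in the other families, the shares of all genes called were 3.81% in EPI, 11.8% in EXMC and 14.9% in TE. Beside these, 0 of 15 relatives tested were called in EPI, 5 of 14 rose and 2 fell in EXMC, and 2 of 16 rose in TE. Of the companions, 1 of 20 rose and 2 fell in EPI, 1 of 22 rose and 4 fell in EXMC, and 3 of 21 rose and 5 fell in TE.

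VTCN1 was the only one of the 5 genes with counts enough to be tested with day in the epiblast, where it rose. Single embryos measured 1.2 and 5.05 CPM at day 11, then 0, 15.5 and 18.2 CPM at day 12 and 6.90 CPM at day 13. Day 14 followed with 27.1 and 31.6 CPM, day 16 with 234, 106, 147 and 192 CPM, and day 17 with 85.9 and 100.3 CPM. All 6 of these embryos of days 16 and 17 lay above all 8 earlier ones, while a smaller sum of day 17 replicate 3 (under 5 cells, not in the fit) measured 13.7 CPM. The change was 0.92 ± 0.14 log2 units per day (adjusted p = 0.000672, edgeR, 14 embryos), beside 1.94% of 11589 genes that rose and 3.81% called in all. The call held when each embryo was left out in turn, with adjusted p from 0.000500 to 0.00291. The other 4 genes stayed low in the epiblast, where their day 16 means were 2.90 CPM for ISL1, 2.37 CPM for GABRP, 1.02 CPM for ATP12A and 0.420 CPM for DLK2.

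In EXMC, the mesenchyme under the amnion and yolk sac, VTCN1 also rose with day, at a lower level. Its rate was not tested against that of the epiblast. The 2 embryos of day 11 and the 3 of day 13 were at 0 CPM, and the 4 of day 12 measured 1.13, 0, 3.17 and 15.3 CPM. Day 14 followed with 3.33, 1.10 and 3.42 CPM, day 16 with 36.8, 30.5, 48.6 and 35.4 CPM, and day 17 with 15.2, 41.1 and 9.44 CPM. All 4 embryos of day 16 lay above all 12 earlier ones. The change was 0.90 ± 0.21 per day (adjusted p = 0.00625, edgeR, 19 embryos), beside 7.15% of 11056 genes that rose and 11.8% called in all, and ISL1, the only other gene tested there, gave no call (-0.15 ± 0.15 per day, adjusted p = 0.588). Without the day 16 embryos the VTCN1 call was lost (0.66 per day, adjusted p = 0.0668). Without day 12 replicate 5, where a single cell held all 9 counts, the change was 1.40 per day (adjusted p = 0.000188).

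Epiblast markers moved with VTCN1 in EXMC. Their sum was 59.9 to 481 CPM at days 11 to 14, 449 to 855 CPM at day 16 and 130 to 392 CPM at day 17. In the EXMC fit POU5F1 rose by 0.73 ± 0.20, SOX2 by 0.81 ± 0.25 and DNMT3B by 0.33 ± 0.08 log2 units per day (adjusted p = 0.0251, 0.0386 and 0.0122, edgeR). DPPA4, the other epiblast marker tested, was not called (-0.05 ± 0.12). At day 16 VTCN1 in EXMC stood at 22.2% of its epiblast level and the summed epiblast markers at 23.5% of theirs. In VE/YE the shares were 39.9% for VTCN1 and 43.7% for the markers. Most of the marker sum in VE/YE was GDF3, a TGF-beta family ligand, at 1019.7 CPM there, against 65.95 CPM in EPI. Without GDF3, a choice made after seeing these values, the markers stood at 19.8% of their epiblast level in EXMC and at 8.58% in VE/YE. In the amnion VTCN1 was at 215% of its epiblast level and the markers at 43.1%. What part of the VTCN1 counts in EXMC and VE/YE came with epiblast RNA was not tested.

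**Figure D4:**
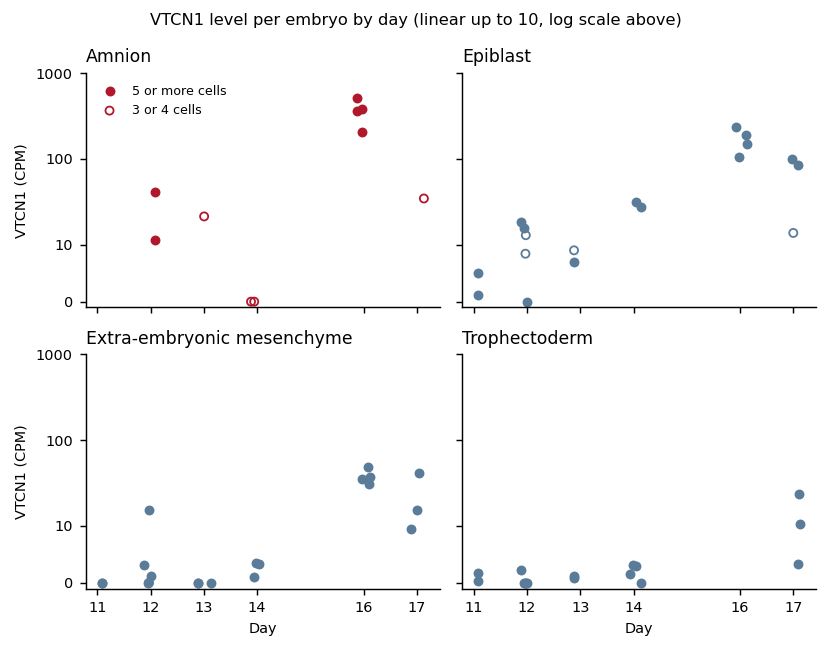
VTCN1 level per embryo (y axis, CPM, linear up to 10 and log scale above) by labelled day (x axis) in amnion, epiblast, extra-embryonic mesenchyme and trophectoderm. Filled points are sums of at least 5 cells, open points sums of 3 or 4 cells; the step between day 14 and day 16 is seen in the first 3 families, while trophectoderm has no sum at day 16.

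In trophectoderm none of the 2 genes that could be tested was called, beside 14.9% of 12205 genes that changed with day. ISL1 changed by 0.04 ± 0.27 log2 units per day (adjusted p = 0.948, edgeR) and GABRP by 0.44 ± 0.23 (adjusted p = 0.2, unadjusted 0.0657). DESeq2 called neither. VTCN1, too low for the test, averaged 12.3 ± 10.1 CPM at day 17 (n = 3), against at most 1.91 ± 1.46 CPM on the days up to 14. Of the 24 trophectoderm cells of day 17, 4 held any VTCN1, and 1 of them held 60.6% of the 33 counts. The summed trophectoderm markers of these day 17 sums were 711 to 898 CPM, against at least 6793 CPM in every earlier sum, and the part of that shift in the VTCN1 level was not tested.

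**Figure D5:**
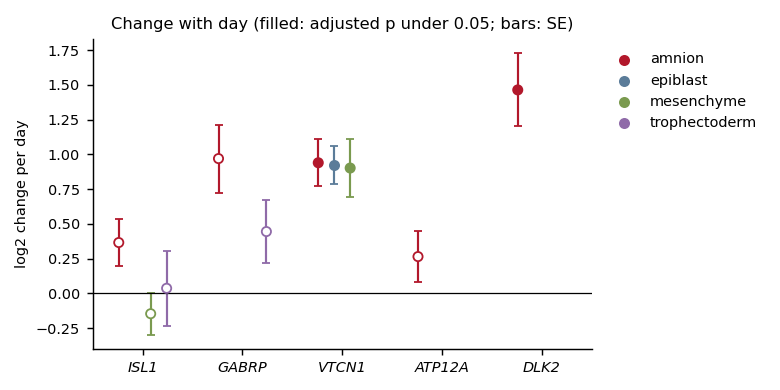
Change with day in log2 units per day (y axis) for each gene (x axis) in each family where it could be tested (colours). Bars are standard errors and filled points have an adjusted p under 0.05; VTCN1 lies near 0.9 per day in amnion, epiblast and mesenchyme, and DLK2 is called in the amnion.

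Whether the amnion and epiblast changed with day at different rates was asked in 9 embryos with at least 3 cells of both families, with the embryo as a block. None of the 5 genes was called, as against 0.0553% of 14470 genes (981 had an unadjusted p under 0.05, and DLK2 was the 1 member among them). For VTCN1 the difference in slope was 0.06 ± 0.58 log2 units per day (adjusted p = 0.996, edgeR), an error wide enough to hide differences as large as the change itself. For DLK2 it was 1.94 ± 0.67 (unadjusted p = 0.00704, adjusted p = 0.536, edgeR). For ISL1, GABRP and ATP12A it was between -0.14 and 0.35 (adjusted p from 0.95 to 0.978, edgeR). DLK2, ISL1, GABRP and ATP12A had too few epiblast counts for a test with day there. They entered this fit through the amnion sums where they are high, so their values here are no support apart from the amnion change. DESeq2 called none of the 5 either.

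The genes most like each of the 5 were sought by Pearson's r of log2(CPM + 1) over 73 sums of embryo and family, among 13623 genes. These sums share embryos and differ in depth, so r is a description. For ISL1 they were CXHXorf48 (r = 0.679), MPO (0.678) and UPK2 (0.654). For GABRP they were CXHXorf48 (0.762), PDZRN4 (0.734) and LTF (0.729), for ATP12A UPK2 (0.718), MPO (0.702) and PDZRN4 (0.688), and for DLK2 MPO (0.714), COX4I2 (0.711) and UPK2 (0.704). DLK2 itself ranked 4th for ATP12A, and ATP12A 6th for DLK2. VTCN1 stood apart, with IGFBP2 (0.770) and NREP (0.736), and its r with the other 4 genes was between 0.236 and 0.531.

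Genes named this way include some known from other tissues. MPO encodes the myeloperoxidase of neutrophil granules, and averaged 187 ± 95.1 CPM in L-AM2, 17.7 ± 28.1 CPM in L-AM1 and 30.0 ± 15.9 CPM in E-AM, against 15.0 CPM in E-PGC and at most 3.63 CPM in the other types. LTF, lactoferrin, averaged 120 ± 28.4 CPM in L-AM2, 13.9 ± 12.3 CPM in L-AM1 and 123 ± 188 CPM in E-AM, against 50.4 CPM in E-PGC. UPK2, a uroplakin of the bladder lining, averaged 42.3 ± 30.4 CPM in L-AM2, 3.21 ± 5.56 CPM in L-AM1 and 5.12 ± 6.53 CPM in E-AM, against at most 1.93 CPM elsewhere. PDZRN4 averaged 1035 ± 497 CPM in L-AM2, 190 ± 126 CPM in L-AM1 and 133 ± 53.9 CPM in E-AM, against 107 CPM in L-Gast2.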

How the data were processed

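The deposited table holds whole-number counts per gene and cell, per the file headers, and a second deposited table gives each cell's embryo, day and type as the authors assigned them. The submitters' processing notes name the aligner STAR. No source used here gives its version, a genome build, the counting tool or any collapse of PCR copies, so intervals cover counting error only. Embryos were the replicates. Nothing in the labels names a sequencing batch, cell names carry no barcodes that libraries could share, and doublets were not called, since each cell was picked by hand. No further filter on cells was applied. Embryos hold 22 to 88 cells and 2540816 to 11857191 counts.

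The 5 genes, the gene lists and the tests were chosen with earlier results of these data known. Counts were summed per embryo and type (at least 3 cells) or per embryo and family (at least 5 cells; 3 of each for amnion against epiblast). CPM used TMM-scaled totals. Genes kept by filterByExpr were tested by quasi-likelihood (robust glmQLFit, then glmQLFTest; edgeR 4.0.16, R 4.3.3). A call means an adjusted p (Benjamini-Hochberg) under 0.05. Day was a number. Scripts were tested on simulated data. Named genes were the 5, the 3 most like each by r, and of each list up to 4 with the smallest adjusted p in the amnion fit. Levels of other list genes were named after seeing them. Of 16890 rows with a numbered LOC name, 3273 were given a symbol through RefSeq's table for T2T-MFA8v1.1, among them COX4I2. Some genes that these rules would name are not reported here. Alternatives used DESeq2 1.42.0, limma 3.58.1 (log2 of mean CPM + 1), other scaling, filters, cell minima and label types, and left out embryos or days. Shares were thinned in Python 3.11.15.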

Additional observations from a re-analysis of the deposited data

Results flagged for a closer look

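Within the embryos of 1 family and day, 12 of 42 groups of 4 or 5 embryos held a highest embryo far from the others by Dixon's ratio, where chance flags about 1 in 20 groups and values near 0 inflate the number. GABRP stood out in day 16 replicate 3 in 3 families: at 134 CPM in VE/YE (next embryo 8.72), at 20.9 CPM in EXMC (next 4.23) and at 19.8 CPM in Gast (next 0). In each, 1 cell held most of the counts (62 of 64, 41 of 44 and 37 of 43). ATP12A stood out at 26.4 CPM in Gast of day 16 replicate 4 (19 counts in 4 cells), at 18.5 CPM in EPI of day 12 replicate 4 (11 counts in 1 cell) and at 3.01 CPM in TE of day 12 replicate 3. VTCN1 stood out at 15.3 CPM in EXMC of day 12 replicate 5 (9 counts in 1 cell) and at 2.26 CPM in TE of day 12 replicate 3. ISL1 stood out at 10.4 CPM in TE of day 12 replicate 5 and at 3.88 CPM in EPI of day 12 replicate 2, and DLK2 at 1.29 CPM in TE of day 12 replicate 1 and at 0.309 CPM in TE of day 14 replicate 3, each from the counts of 1 cell.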

How the results depend on the processing

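No paired analysis was possible because replicate numbers name different embryos on each day, for any change with day; amnion against epiblast had the embryo itself as its block. Causes of the shifts below were not tested. In the amnion the 87 genes called with day became 272 with DESeq2, 304 with no filter, 250 with limma on mean CPM, 53 with 3 cells per sum, 25 with label type as a covariate, 6 with developmental labels alone and 6 to 274 with 1 embryo left out. Of the 5 genes, 2 were called as reported, 1 with 3 cells per sum (GABRP), 0 with developmental labels alone or label type as a covariate, and 0 to 2 with 1 embryo left out. DESeq2, no filter and limma added GABRP. A fit without day 16 could not be had for the amnion, and no day 17 sum entered. In the epiblast the 442 genes became 1033 with DESeq2, 1232 with no filter (2 of the 5, GABRP and VTCN1), 710 with limma, 143 without day 16 and 275 to 503 with 1 embryo left out. In EXMC the 1303 became 2732 with no filter, 586 without day 16 and 937 to 1371 with 1 embryo left out, and 0 of the 5 were called without day 16 or without day 17, where VTCN1 was too low to test. In trophectoderm the 1813 became 240 with developmental labels alone, 17 without day 17 and 1052 to 1892 with 1 embryo left out, and no filter called 1 of the 5 (VTCN1). For amnion against epiblast the 8 genes became 4 with other size factors or 5 cells per sum, 51 with DESeq2, 72 with no filter, 30 without day 16, 13 without day 17 and 3 to 17 with 1 embryo left out. Changes that turned sign, none of them called, were ATP12A in amnion with limma (-0.24), and ISL1 in trophectoderm with limma (-0.24), label type (-0.084), days 16 and 17 against earlier (-0.57) and 1 embryo left out (-0.18 to 0.16). For amnion against epiblast, they were GABRP with DESeq2 (0.28), limma (0.78) and without day 16 (0.072), VTCN1 with 5 cells per sum (-0.15) and without day 16 (-0.80), ATP12A with 5 cells per sum (-0.67), limma (-0.32) and without day 16 (-0.16), and ISL1 with days 16 and 17 against earlier (-0.28). With 1 embryo left out these ran from -0.51 to 0.14 for GABRP, -0.15 to 0.81 for VTCN1, -0.084 to 0.67 for ATP12A and -0.53 to 0.49 for ISL1. Of 60 levels by type, 6 moved by more than 1 SD with equal weight per cell and 1 with 1 cell per sum, as did 3 of 55 with 5 cells per sum. Of 60 shares, 27 left their interval on thinning and 21 with at least 2 counts asked for. Amnion values rest on 82 cells, 2 embryos at day 12 and 4 at day 16, so small differences between labels could not be detected at this depth.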
